A study of Saccharomyces cerevisiae with 9 samples.

Results

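Yeast strains that each lack 1 gene of the respiratory chain, of ATP synthase or of ubiquinone synthesis were followed through sodium arsenite treatment. Strains were taken by symbol, as every gene whose annotated name starts with COX, QCR, SDH, ATP or COQ followed by a digit. The platform annotation names 58 such genes, of which 57 had a value on at least 1 array, out of 5101 strains in all: 18 ATP, 16 COX, 9 COQ, 8 SDH and 6 QCR strains. COX18 had no value, and 12 further symbols that the rule would take from the R64 gene table are not analysed here.

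The oxidative phosphorylation system sits in the inner mitochondrial membrane. Saccharomyces cerevisiae has no proton-pumping complex I. Electrons enter through single-protein NADH dehydrogenases or through succinate dehydrogenase (complex II, the SDH genes), pass by way of ubiquinone (made by the COQ enzymes) to the cytochrome bc1 complex (complex III, here the QCR genes), and reach oxygen at cytochrome c oxidase (complex IV, the COX genes). The proton gradient drives ATP synthase (complex V, the ATP genes). Yeast can ferment glucose, so strains that cannot respire remain viable on it.

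Tagged deletion strains were compared on 9 arrays, each setting the DNA of an arsenite culture (labelled Cy3) against that of a control culture (Cy5) split from the same cells, with 1 array per pool and dose. All pools descend from BY4743, a diploid of S288C background that carries ura3delta0, leu2delta and his3delta1, is heterozygous for lys2delta0, met15delta0 and the haploid-selection cassette can1delta::LEU2-MFA1pr-HIS3, and has 1 copy of a single gene replaced by kanMX. In the haploid pool, MATa spores of these diploids lacked the gene entirely and were grown at 30 °C to confluence on selective plates with 0, 100, 200, 400, 800 or 1600 µM arsenite. The heterozygous diploid pool, in which 1 gene copy remains, was grown for 10 generations in liquid YPD with 0 or 450 µM, and the pfd1 pool held haploids in which the prefoldin gene PFD1 was also disrupted by TEF1pr-URA3, with 5 µM arsenite on plates lacking uracil against arsenite-free plates containing it.

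Each value below is the log2 ratio of the arsenite to the control channel with the array's median strain set to 0, and a strain that lost share in arsenite has a value below 0. That direction is the likely one and is not settled by the sources. On the pfd1 array 4 of 5 uracil synthesis strains read between -5.23 and -3.98, the exception being URA10 at -0.21, and in the haploid pool the arsenite exporter strain ARR3 and the arsenite channel strain FPS1 stood at -6.52 and 4.19 at 800 µM. With the sign turned, every lower value here would be a higher one. Between 3713 and 8879 tag probes and between 2508 and 4904 strains had a value per array, and the spread between the tags of a strain put the error of a strain value at 0.20 to 0.30 with 2 tags and 0.28 to 0.43 with 1 tag (SD, robust estimate). No other error is available for a single array, and the 1600 µM array stood apart, with a deposited median of 2.99 where the other medians lay between -0.09 and 0.14. The tag probes, not RNA, are measured, so a value reports how common a strain was in the pool.

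Respiratory strains stayed near the median of the pool while the pool itself spread apart. In the haploid pool their median was 0.03 at 0 µM (51 strains), -0.03 at 100 µM (55), 0.00 at 200 µM (55), 0.02 at 400 µM (55), 0.01 at 800 µM (54) and -0.05 at 1600 µM (36). The interquartile range over all strains grew from 0.41 at 0 µM to 0.97 at 800 µM, whereas that of the respiratory strains was 0.38 at 0 µM and 0.41 at 800 µM. Lowest at 800 µM was COX17 at -0.84 and the highest ATP14 at 1.67.

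A background range was set as the central 99% of all strains on the 0 µM array of the same pool, which ran from -1.39 to 1.37 for haploids. At 0 µM 0 of 51 respiratory strains lay outside, against 1.02% of all strains by construction. None of 55 did at 100, 200 or 400 µM, against 1.2%, 2.37% and 6.57% of all strains. At 800 µM 1 of 54 did (ATP14, above), against 19.2% of all strains outside and 7.36% above. At 1600 µM 3 of 36 lay above (ATP1, ATP20 and COQ11) and 0 below, against 14.5% and 3.99% of all strains (18.5% on either side). Each of these 4 values rests on a single measured tag.

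**Figure D1:**
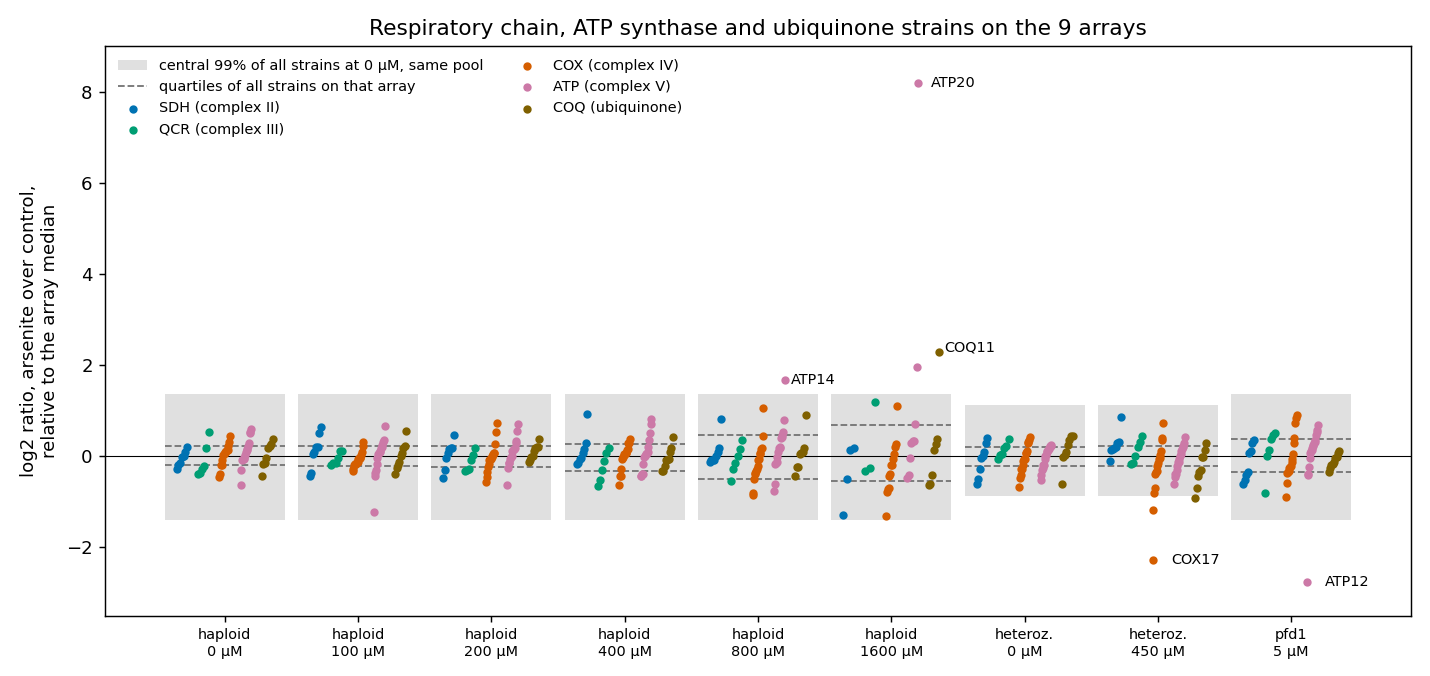
Log2 ratio, arsenite to control, with the array median at 0 (y axis), of the 57 respiratory strains on the 9 arrays (x axis); each point is 1 strain, coloured by symbol group, grey bands are the central 99% of all strains on the 0 µM array of the same pool, and dashed lines are the quartiles of all strains on that array. The dashed quartiles move apart from 0 to 800 µM in the haploid pool, where the points farthest from 0 are ATP14 at 1.67, ATP15 at -1.23 and COX11 at 1.05. At 1600 µM ATP20, COQ11 and ATP1 are highest, and COX17 and ATP12 lie lowest in the heterozygous and pfd1 pools.

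The change with dose was tested as the slope of a strain's value per dose step over 0, 100, 200, 400 and 800 µM, fitted with limma over all 3731 strains measured on these 5 arrays. None of the 51 respiratory strains with all 5 values passed (limma, two-sided test, p adjusted over all strains by Benjamini-Hochberg, threshold 0.05), against 3.11% of all strains (2.89% lower, 0.214% higher); at that share of the background, a count of 0 in 51 is not by itself a result about these strains. At an unadjusted p under 0.05 there were 4 respiratory strains lower and 1 higher, against 15.9% and 12% of all strains. The estimated slopes were small: the median was 0.0085 per step, against 0.006 for all strains, 25 were negative and 26 positive, and they ran from -0.17 for COX19 to 0.19 for SDH5. The 95% intervals of the 51 slopes lay between -0.36 (the lower bound of ATP12) and 0.40 (the upper bound of COQ11). Slopes over all 3731 strains reached -1.71 and 1.17, but a larger set reaches wider extremes, so the 2 ranges are not a like comparison. Each dose is 1 array, so the test sets a straight line over dose order against the scatter around it. With the 1600 µM array added, limma called 0 of 36 respiratory strains and 0% of all 2507 strains, with 26.9% of all strains at an unadjusted p under 0.05.

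**Figure D2:**
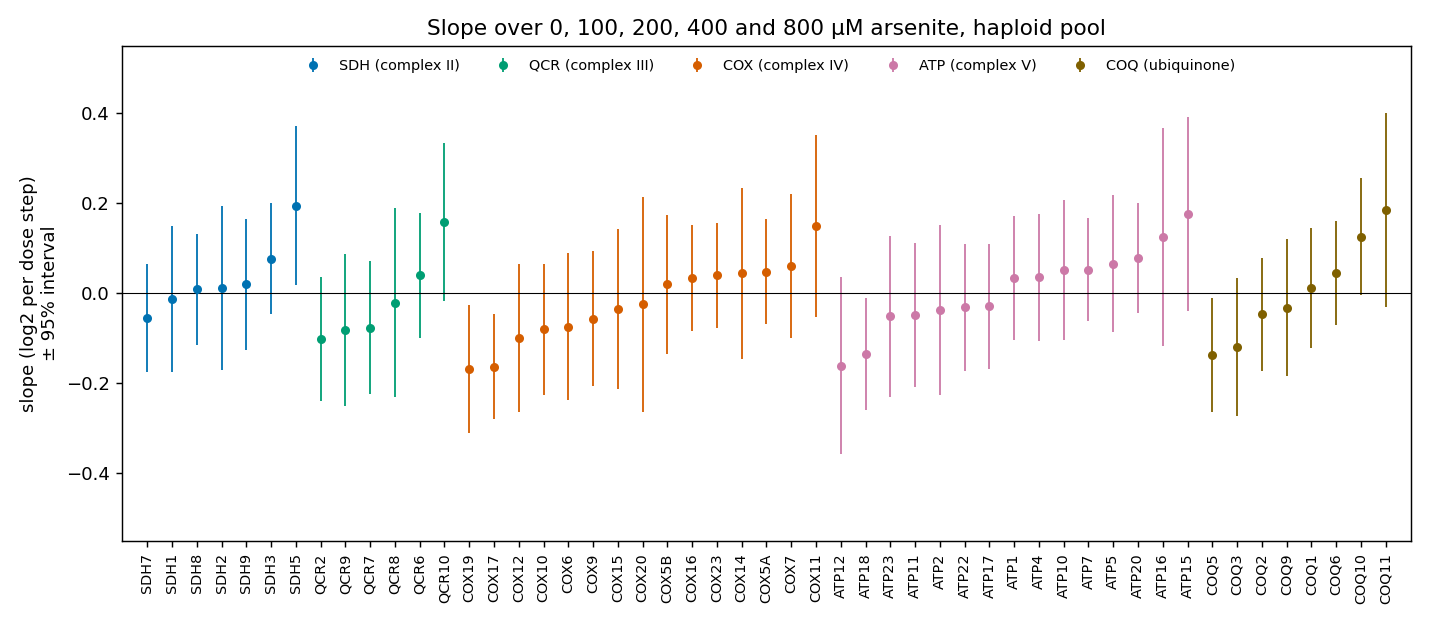
Slope of the log2 ratio per dose step from 0 to 800 µM in the haploid pool (y axis, points) with its 95% interval from limma (bars) for the 51 respiratory strains measured at all 5 doses (x axis), grouped by symbol and ordered by slope. All intervals lie between -0.36 and 0.40, and the slopes run from -0.17 (COX19) to 0.19 (SDH5).

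Succinate dehydrogenase strains had a median of -0.04 at 800 µM (8 strains), with SDH5 the farthest from 0. SDH1 (YKL148C), which lacks the flavoprotein subunit, read -0.20, 0.21, 0.16, -0.05 and -0.13 from 0 to 800 µM. Its values change sign between doses and stay within the error of 1 tag. At 800 µM the 4 structural subunits, which are SDH1, the iron-sulfur protein SDH2 and the membrane anchors SDH3 and SDH4, ran from -0.13 (SDH1) to 0.17 (SDH4). Of the assembly factors, SDH7 and SDH8 read -0.08 and 0.09 at 800 µM. At 1600 µM SDH8 read -1.29, 128th from the lowest of 2508 strains and inside the range, on 1 tag that had read -0.38 at 800 µM; its other tag, at 0.56 there, had no value at 1600 µM.

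SDH5 (YOL071W), which attaches FAD to the flavoprotein, was the highest of the group at 800 µM and had the steepest positive slope of all 51 strains. It read -0.02 at 0 µM, 0.64 at 100 µM, 0.46 at 200 µM, 0.93 at 400 µM, 0.81 at 800 µM and 0.13 at 1600 µM. The 5 readings from 0 to 800 µM do not rest on the same tags: at 0 and 1600 µM 1 tag was measured, and from 100 to 800 µM 2 were, of which the second alone read 1.42, 0.87, 1.83 and 1.37. The slope was 0.19 ± 0.07 (SE; limma adjusted p = 0.149), and over the 1 tag measured on all 5 arrays it was 0.07 (limma adjusted p = 0.43).

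SDH9 (YJL045W), a homologue of SDH1, offered a comparison of paralogues. Its values were -0.14, 0.10, 0.17, 0.16, -0.08 and -0.50 along the 6 haploid doses. At 800 µM SDH1 and SDH9 differed by less than the error of either value. Their slopes of -0.01 (95% interval -0.17 to 0.15) and 0.02 (-0.13 to 0.16) overlapped.

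Cytochrome bc1 strains ran from -0.54 to 0.36 at 800 µM (median -0.07, 6 strains). QCR2 (YPR191W), a core subunit, was lowest of them at 800 µM, with -0.27, -0.16, -0.30, -0.65, -0.54 and -0.32 along the 6 doses, negative on each of the 6 arrays including the one without arsenite. QCR10 (YHR001W-A), a small subunit, was highest, with -0.40, 0.12, -0.28, 0.18, 0.36 and 1.19. Slopes were -0.10 ± 0.06 for QCR2 (SE; limma adjusted p = 0.289) and 0.16 ± 0.07 for QCR10 (limma adjusted p = 0.215). The remaining 4 subunits (QCR6, QCR7, QCR8 and QCR9) read between -0.28 and 0.15 at 800 µM.

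Cytochrome c oxidase strains showed the lowest single value of the 57 at 800 µM, in an assembly factor. COX17 (YLL009C) encodes the copper chaperone that supplies the oxidase through SCO1 and COX11. It read -0.20 at 0 µM, -0.28 at 100 µM, -0.56 at 200 µM, -0.63 at 400 µM, -0.84 at 800 µM and -1.31 at 1600 µM, lower at each of the 5 dose steps than at the one before. Its rank did not move down at each step. Counted from the lowest, it was 920th of 3905 strains at 0 µM, 776th of 4089 at 100 µM and 349th of 4171 at 200 µM. It was then 602nd of 4122 at 400 µM, 715th of 3956 at 800 µM and 120th of 2508 at 1600 µM. Its slope of -0.16 ± 0.05 (SE; limma adjusted p = 0.0994) had the smallest adjusted p of the 51 and did not pass; with the 1600 µM array it was -0.21 (limma adjusted p = 0.102), after quantile normalization -0.05 (0.783) and after scaling each array by its median absolute deviation -0.07 (0.557). All of its values rest on 1 tag.

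COX19 (YLL018C-A), another copper-binding protein of the intermembrane space, had the most negative slope, -0.17 ± 0.06 (SE; limma adjusted p = 0.131). Its values from 0 to 800 µM were 0.14, -0.04, 0.08, -0.43 and -0.51, positive or near 0 up to 200 µM and negative above. COX23, of the same twin-CX9C protein family, read -0.08 at 800 µM. COX11 (YPL132W), which delivers copper to the oxidase core, lay on the other side with 0.44, 0.10, 0.54, 0.37, 1.05 and 1.10 along the 6 doses (slope 0.15 ± 0.08 SE; limma adjusted p = 0.289). The slope was 0.02 without the 800 µM array, 0.02 after quantile normalization, 0.03 after scaling by the median absolute deviation and 0.23 on the tag measured at all 5 doses. Its positive value without arsenite averages tags at 0.81 and 0.06. The first of these 2 tags was measured only at 0 and 200 µM (1.01) of the haploid arrays. The other read 0.06, 0.10, 0.07, 0.37, 1.05 and 1.10 along the 6 doses. At 800 µM COX17 and COX19 were thus below 0 and COX11 above it.

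The heme A pathway gave 2 further assembly strains. COX10 (YPL172C), the heme O synthase, read -0.46, -0.32, -0.36, -0.44, -0.80 and -0.77 along the 6 doses, and its 2 tags were both negative on all 6 haploid arrays (-0.96 and -0.64 at 800 µM). It was thus low on the array without arsenite as well, and its slope was -0.08 ± 0.06 (SE; limma adjusted p = 0.432). That slope was 0.003 without the 800 µM array, and positive after quantile normalization (0.11) and after scaling by the median absolute deviation (0.03). COX15 (YER141W), which converts heme O to heme A, read 0.32, -0.17, -0.23, 0.04, 0.04 and -0.70. The other assembly factors (COX14, COX16 and COX20) lay between -0.07 and 0.18 at 800 µM.

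Structural subunits of the oxidase ran from -0.40 (COX8) to 0.44 (COX7) at 800 µM, with 5 of 7 negative and a median of -0.29. COX5A and COX5B encode alternative forms of one subunit, used in air and under low oxygen respectively. COX5A (YNL052W) read -0.08, -0.12, 0.05, 0.08, 0.07 and 0.05 along the 6 doses, and COX5B (YIL111W) -0.38, -0.13, 0.00, -0.06, -0.32 and -0.40. COX5B was lower than COX5A on 6 of the 6 arrays, the one without arsenite included and by less than the error at 100, 200 and 400 µM, and the slopes of 0.05 (95% interval -0.07 to 0.16) and 0.02 (-0.14 to 0.17) overlapped. The difference between the paralogues was not tested for itself.

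ATP synthase strains had medians of 0.10 at 0 µM (15 strains) and 0.18 at 800 µM (16 strains). At 800 µM the F1 part stood at 0.02 (4 strains, from -0.16 for the alpha subunit ATP1 to 0.79 for the delta subunit ATP16). The peripheral stalk and membrane part stood at 0.41 (7 strains). ATP15 (YPL271W), the epsilon subunit of F1, was the lowest of all respiratory strains at 0, 100 and 200 µM, with -0.64, -1.23, -0.63, -0.44 and -0.15 from 0 to 800 µM on 1 tag. It was thus low without arsenite and nearest to 0 at the highest dose. Its slope was 0.18 ± 0.09 (SE; limma adjusted p = 0.25), 0.34 without the 0 µM array (0.0869) and 0.50 after quantile normalization (0.104). In the stalk and membrane part 6 of 7 were positive at 800 µM, as 5 of 6 were at 0 µM, the exception at 800 µM being ATP18 at -0.61. ATP18 (YML081C-A) had a slope of -0.14 ± 0.05 (SE; limma adjusted p = 0.151), and -0.07 after quantile normalization. Assembly and expression factors had a median of -0.01 (5 strains), and among them the F1 chaperone ATP12 (YJL180C) was lowest, with -0.03, -0.04, 0.15, -0.17 and -0.77 from 0 to 800 µM (slope -0.16 ± 0.08 SE; limma adjusted p = 0.25). Its reading at 800 µM stood apart from the other 4; with dose in µM in place of equal steps limma called it lower (adjusted p = 0.0467), in a fit that called 14.8% of all strains lower, and without the 800 µM array its slope was -0.02. ATP11, the chaperone of the beta subunit, read -0.13 at 800 µM.

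ATP14 (YLR295C), a subunit of the peripheral stalk region, was the 1 respiratory strain outside the range at 800 µM. It had no value at 0 or 1600 µM, and read 0.67, 0.70, 0.82 and 1.67 from 100 to 800 µM. All 4 readings were positive, and 1 tag was measured on each. Over 100 to 800 µM its slope was 0.31 ± 0.12 (SE; limma adjusted p = 0.173). At 1600 µM ATP20 (YPR020W), a subunit of the dimeric enzyme, reached 8.18, the 9th highest of 2508 strains, after 0.16, 0.08, 0.15, 0.36 and 0.41 at the lower doses. Of its 2 tags the one measured at 1600 µM had read 0.16 at 800 µM, and the other had no value at 1600 µM. ATP1 (YBL099W) read 1.96 there on 1 tag, after -0.31, -0.43, -0.14, -0.39 and -0.16. ATP1 and ATP20 were singled out after their values were seen.

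Ubiquinone strains had medians of 0.06 at 0 and at 800 µM (8 strains each). COQ2 (YNR041C), the prenyltransferase that joins the ring to its tail, was lowest at 800 µM, with -0.18, -0.26, -0.12, -0.22, -0.43 and -0.62 along the 6 doses. It was negative on all 6 arrays and within 1 error of its 0 µM value up to 400 µM. COQ11 (YLR290C), of the synthesis complex, was highest with 0.17, -0.20, 0.20, 0.17, 0.91 and 2.29, near 0 up to 400 µM and higher at the 2 highest doses (slope 0.18 ± 0.09 SE; limma adjusted p = 0.232; 0.04 without the 800 µM array). COQ5 (YML110C), a C-methyltransferase, had a negative slope of -0.14 ± 0.05 (SE; limma adjusted p = 0.155).

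**Figure D3:**
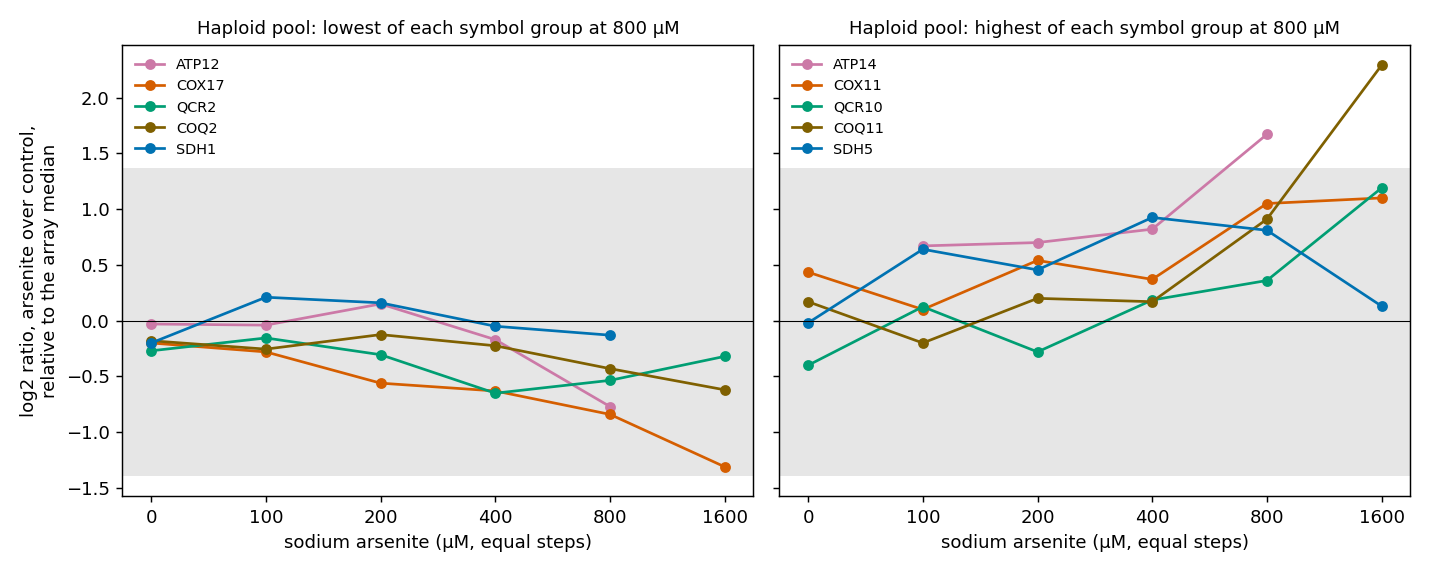
Log2 ratio relative to the array median (y axis) along the 6 haploid doses (x axis, µM in equal steps) of the strains lowest (left) and highest (right) at 800 µM in each of the 5 symbol groups; points are single arrays and the grey band is the central 99% of all haploid strains at 0 µM. COX17 goes down at each step to -1.31, while ATP14 reaches 1.67 at 800 µM and COQ11 2.29 at 1600 µM.

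ATP14 and COQ11 lie 4 places apart in the R64 gene order of chromosome XII, and the strains of the genes around them were high as well. Over up to 10 genes on each side, the median at 800 µM was 0.79 around ATP14 (12 of 14 strains above 0) and 1.01 around COQ11 (14 of 16), the 2 highest among the neighbourhoods of the 57 strains. At 1600 µM the medians were 1.92 (8 of 8 strains above 0) and 1.73 (10 of 10), and at 400 µM 0.07 and 0.06. In the heterozygous pool at 450 µM both neighbourhoods were on the other side, with medians of -0.40 and -0.40 (14 of 16 and 15 of 17 strains below 0), and COQ11 itself read -0.91 and ATP14 0.23. They were already below 0 in that pool without arsenite, at -0.27 around ATP14 (14 of 15 strains below 0) and -0.18 around COQ11 (12 of 15). An adjoining strain could differ: GSP1, next to ATP14, read -3.65 at 800 µM. Across the 54 strains with a value at 800 µM, the strain's own value and its neighbourhood median had a Pearson r of 0.57, and 0.41 without ATP14 and COQ11; neighbourhoods overlap and the values share 1 array. COX10, low at 800 µM, also lay in a low neighbourhood (median -0.41, 16 strains), and ATP18, at -0.61, in the lowest of the 57 (median -0.53, 13 of 14 strains below 0). Around COX17, at -0.84, the median was -0.335 (11 of 15 strains below 0). COX19 lies within 10 genes of COX17 and is among those strains, and around COX19 the median was -0.14 (9 of 13 below 0). The part of chromosomal position in these values was not tested.

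**Figure D4:**
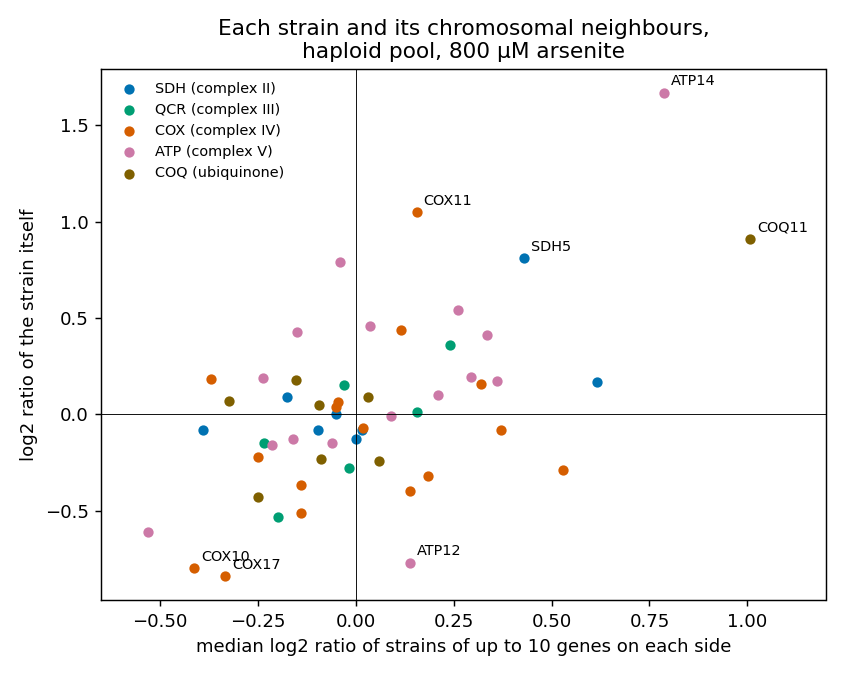
Log2 ratio of each respiratory strain on the haploid 800 µM array (y axis) against the median log2 ratio of the strains of up to 10 genes on each side of it (x axis); each point is 1 of 54 strains, coloured by symbol group. ATP14 and COQ11 stand at the right, where the neighbourhood medians are 0.79 and 1.01, while ATP12 and COX11 differ from neighbourhoods near 0.

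In the heterozygous pool, which asks whether losing 1 of 2 copies matters, 3 of 56 respiratory strains lay below the background range of that pool (-0.87 to 1.13) at 450 µM and 0 above, against 2.41% and 0.918% of all strains (3.32% on either side). At 0 µM 0 of 55 lay outside, against 1.02% by construction. Of these, 2 are assembly factors of cytochrome c oxidase. COX17 read -0.20 at 0 µM and -2.27 at 450 µM, 11th from the lowest of 4904 strains. COX15 read 0.30 and -1.18, and COQ11, the third, -0.62 and -0.91. COX17 and COX15 were inside the range without arsenite and below it with arsenite, COX17 by far. COX15 passed the bound of -0.87 by about the error of 1 tag on that array (0.29). The 2 COQ11 readings differed by no more than that error. The differences, 450 µM minus 0 µM and relative to the median of all strains, were -2.06 for COX17, -1.47 for COX15 and -0.28 for COQ11, each on 1 tag and 1 array per dose, with no replicate check.

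The strains of the genes beside COX17 were not as low as its -2.27 at 450 µM. PSR1 and DRS1, which flank it, read 0.33 and -0.55 at that dose. Over the neighbourhood of COX17 the median was -0.13 at 450 µM (13 of 19 strains below 0). At 0 µM it was 0.11 (7 of 18 below 0). The part of chromosomal position in the value of COX17 was not tested. Beside COX15, MAG1 read -3.56 at 450 µM but also -3.88 at 0 µM, and EMP65 read -0.36. RTR1, a place beyond EMP65, read -3.42 at 450 µM with no value at 0 µM. Over all 55 respiratory strains with both values the median difference was -0.12 (quartiles -0.30 and 0.22), where the quartiles of all strains were -0.25 and 0.25. By group, the median was 0.29 for SDH (8 strains), -0.05 for QCR (6), -0.12 for COX (16), -0.08 for ATP (17) and -0.26 for COQ (8). Besides COX17 and COX15 the lowest were COX6, a structural subunit, at -1.16 and COQ1, which makes the ubiquinone tail, at -1.03. SDH2 stood highest at 1.49, from -0.62 at 0 µM to 0.85 at 450 µM on 1 tag, with both readings inside the range. COX6 and COQ1 rest on 2 tags and read -0.82 and -0.70 at 450 µM, also inside it.

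The other strains described above gave these heterozygous readings at 0 and then 450 µM. SDH1 read -0.51 and 0.15, SDH5 0.00 and 0.14, and SDH9 -0.29 and 0.21. QCR2 read 0.18 and -0.14, and QCR10 0.23 and 0.45. All of these succinate dehydrogenase and bc1 readings were inside the range. COX11 read -0.42 and -0.14, COX5A 0.07 and -0.07, and COX5B -0.68 and -0.70. ATP12 read 0.17 and -0.60, and COQ2 0.45 and 0.29. COX5B was low at both doses alike, and ATP12 was lower with arsenite, inside the range.

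Full deletion and loss of 1 copy can be set side by side for these strains. COX17 was low in both pools, at -0.84 in haploids at 800 µM and -2.27 in heterozygotes at 450 µM, though inside the haploid range. COX15 read 0.04 and -1.18, and COX6 -0.36 and -0.82. Pools, media and doses differ, so no test of the difference was made.

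In haploids that also lack PFD1, ATP12 was the 1 of 57 respiratory strains below the haploid background range at 5 µM, and 0 lay above, against 4.47% and 5.64% of all strains (10.1% on either side). ATP12 read -2.77, 34th from the lowest of 4612, on 1 tag. No 0 µM array of this pool was analysed, and the range is that of the plain haploids. The median of the 57 strains was 0.04, and after ATP12 the lowest was COX10 at -0.89 (tags at -1.19 and -0.60). QCR10 followed at -0.80, with tags far apart at -1.33 and -0.27. The highest were COX7 at 0.90 and COX11 at 0.85. Among the strains named above, COX17 read -0.34, COX15 -0.13, SDH1 0.11, SDH5 0.36, SDH9 -0.61 and QCR2 0.01. COX5A read -0.32, COX5B -0.25, ATP14 0.52, COQ2 -0.19 and COQ11 -0.13, all inside the range. These values carry the uracil difference between the 2 media as well as arsenite, and the 2 cannot be told apart.

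ATP12 is the gene next to PFD1 on chromosome X in the R64 gene table. On the other side of PFD1, the autophagy gene ATG27 read -1.61, the only other strain below the range among the genes up to 10 places away. Above the range among these genes were RPL39 at 2.95, RPS22A at 2.75, RPL17B at 1.98 and CPS1 at 1.47. The following genes on the ATP12 side, RBH1, MNN11 and GON7, read 0.54, 0.48 and 0.47, and on the ATG27 side RPL17B and SWI3 read 1.98 and -0.43. In plain haploids, where PFD1 was not a second deletion, ATP12 and ATG27 read -0.77 and -0.17 at 800 µM, and the PFD1 strain itself -4.76. The part of closeness to PFD1 in the value of ATP12 was not tested.

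**Figure D5:**
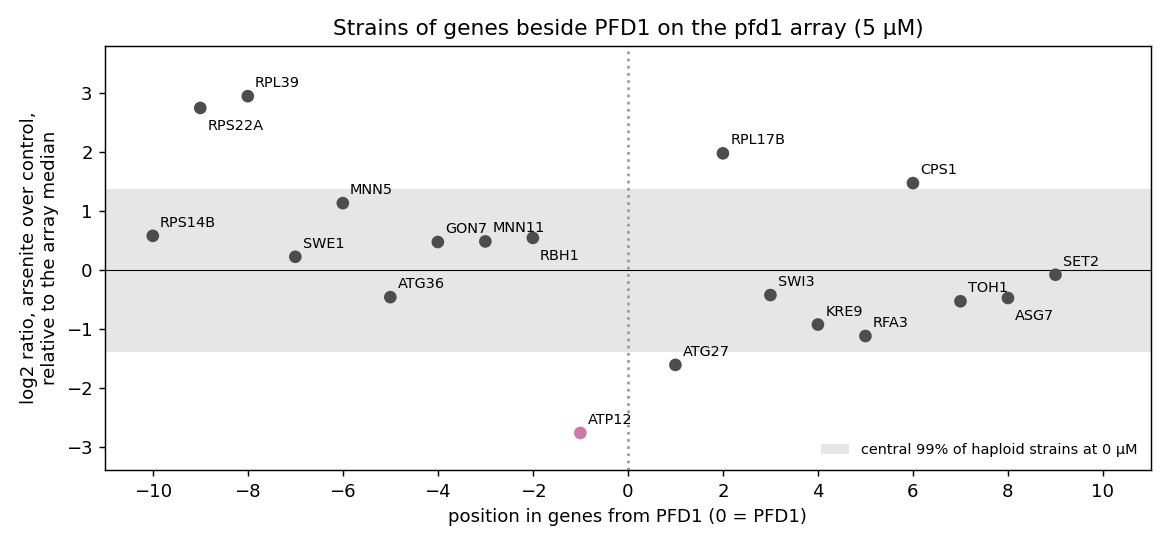
Log2 ratio relative to the array median on the pfd1 array at 5 µM arsenite (y axis) of the strains of genes up to 10 places from PFD1 (x axis, position in genes); points are single strains and the grey band is the central 99% of haploid strains at 0 µM. ATP12 at -2.77 and ATG27 at -1.61, which flank PFD1, are the 2 lowest.

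Respiratory genes with other symbols gave a further view of the pathway: 60 genes were listed, 53 had a value and 50 a slope. None passed in either direction (limma, against the 3.11% above), the median slope was -0.01, and at an unadjusted p under 0.05 there were 3 lower and 0 higher, against 15.9% and 12% of all strains. All 7 complex III genes of this list with a slope had a negative one, from -0.21 (COR1, the other core subunit) to -0.0025 (CYT1, cytochrome c1). Over all strains 1779 of 3731 slopes were negative, and of the QCR strains, also of complex III, 4 were negative and 2 positive. The 7 cytochrome c and NADH dehydrogenase genes ran from -0.13 (NDE1) to 0.11 (NDI1). Complex IV assembly genes had a median of -0.02 (15 strains), translation and mRNA factors of -0.01 (15 strains), ATP synthase subunits and regulators of 0.03 (4 strains) and the HAP transcription factors of 0.10 (2 strains). The translation and mRNA factor PET309 had the most negative slope of the list (-0.33, SE 0.07, limma adjusted p = 0.0622). It read 0.78 at 0 µM and -0.52 at 800 µM. At 1600 µM 1 of 40 genes lay below the haploid range (COR1 at -1.53) and 2 above, against 3.99% and 14.5% of all strains. PET117, an assembly factor of complex IV, had the smallest adjusted p (slope -0.28 ± 0.05 SE; limma adjusted p = 0.0518) and read -0.42, -0.56, -0.78, -1.23 and -1.51 from 0 to 800 µM. PET117 was below the background range at 800 µM and read -1.09 at 1600 µM. In the heterozygous pool it read -0.38 at 0 µM and -0.89 at 450 µM, and on the pfd1 array it stood on the other side at 1.07. On the heterozygous 450 µM array 3 of 49 genes of this list lay below the range of that pool and 0 above, against 2.41% and 0.918% of all strains.

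Mitochondrial ribosomal proteins, which translate the subunits encoded in mitochondrial DNA, stood elsewhere at the higher doses. Their strains (symbols MRPL, MRPS or RSM followed by a digit) had medians of -0.05 at 0 µM (32 strains), -0.68 at 400 µM (37), -1.39 at 800 µM (35) and 0.60 at 1600 µM (5). On the 800 µM array 18 of 35 lay below the background range against 11.8% of all strains and 0 of 54 respiratory strains. In the slope fit 4 of 31 passed as lower and 0 as higher (limma, adjusted p under 0.05), with a median slope of -0.34, against 2.89% lower and 0.214% higher over all strains and 0 of 51, with a median of 0.01, for the respiratory strains. With a trended and robust prior limma called 0 of all 3731 strains. In the heterozygous pool at 450 µM their median was 0.02 (48 strains), and in the pfd1 pool -0.06 (47 strains). These are descriptions of the same arrays, and the difference between the 2 sets was not tested. The table holds ratios without intensities, so a strain that was scarce in both cultures cannot be told apart from one whose share did not change. Between the 2 tags of a strain, Pearson r at 800 µM was 0.88 over all strains (2221) and 0.38 over respiratory strains (26). At 0, 100, 200 and 400 µM it was 0.14, -0.04, 0.11 and 0.17 over respiratory strains, against 0.14, 0.34, 0.52 and 0.71 over all strains. In the heterozygous pool it was -0.04 at 0 µM and 0.56 at 450 µM, against 0.15 and 0.44. Respiratory strains span a narrower range at 800 µM, and the part of that in r was not tested.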

How the data were processed

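The authors' deposited table holds a log ratio of the 2 channels per tag probe. Scanner, normalization, filters, log base and sign were not stated in the labels or the table. The deposited values were taken as log2; a natural log cannot be told apart from it and would enlarge every printed value by a constant factor. Of 22575 probes 9727 had a value, 8765 of them with 1 gene in the platform annotation, 962 unnamed and 0 with several. Values were turned to arsenite over control, averaged over the tags of a strain and centred on the median strain. Of the 57 strains 40 had 2 or more tags and 17 had 1; 36 were on all 9 arrays. Probes were split by table position into tag set 1 and tag set 2 (offset 10971).

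Slopes per dose step came from lmFit and eBayes (limma 3.58.1, R 4.3.3) on all strains, complete over 5 arrays. The samples are single arrays with no replicates, so p-values measure scatter around the line only. The script was tested on simulated data. Neighbours come from gene order in the R64 table; the authors' build is not given. Members, lists, the 5-array fit and the named strains (lowest and highest per symbol group at 800 µM, those outside the range in the heterozygous or pfd1 pool, paralogue pairs) were chosen with earlier results of these data known; others named for rank, tags or neighbourhood were chosen after values were seen. No filter on low values was applied beyond the deposited missing values.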

Additional observations from a re-analysis of the deposited data

How the results depend on the processing

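Of 16 alternatives to the slope fit, 15 called 0 respiratory strains, among them leaving out each array (0 to 0 called); with dose in µM in place of equal steps 1 of 51 was called (ATP12, lower), in a fit that called 554 strains lower and 474 higher among 3731. Outside that fit, median slopes of the respiratory strains lay between -0.04 and 0.01, and the smallest adjusted p was 0.0793, without centring. Over all strains the fit called 108 lower and 8 higher, but 43 and 32 after quantile normalization, 136 and 43 after scaling by the median absolute deviation, 152 and 15 without centring, and 0 and 0 with a trended and robust prior or with the 1600 µM array. Leaving out the 100, 200, 400 or 800 µM array gave 7 and 0, 55 and 1, 14 and 1, and 31 and 1; tag set 2 alone gave 66 and 3, and strains with at least 2 tags on every array 45 and 3 of 1932. The cause was not tested. Single slopes moved too, and that of COX10 changed sign under 2 scalings and without the 800 µM array. Without centring, the 1600 µM median became -3.04. A range of the central 95% put 1 respiratory strain outside at 100 µM, 2 at 400 µM, 6 at 800 µM and 8 at 1600 µM, against 5.65%, 16.3%, 34.9% and 40.2% of all strains; it put 1 and 8 outside in the heterozygous pool at 0 and 450 µM and 5 in the pfd1 pool, against 4.9%, 8.18% and 23%. With strains of at least 2 measured tags and a range from those strains (-0.75 to 0.96), 2 of 39 lay outside in the pfd1 pool (COX10 and QCR10, both below; 17.9% of all). Quantile normalization of the pfd1 array, which stands alone in its pool, was not run. The fit on tags measured on all 5 arrays was added after the data were seen. No paired analysis was possible because each pool and dose has 1 array. Array number and single tags limit every value.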
